A study of Mus musculus with 14 samples.

Results

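The ubiquitin and proteasome genes of the hippocampus were followed in mice exposed to intermittent hypoxia (IH) or sustained hypoxia (SH). Members were taken by symbol: the proteasome genes Psma to Psmg, the conjugating enzymes Ube2, the activating enzymes Uba, the polyubiquitin gene Ubb, the deubiquitinases Usp, Uchl and Otud, and the cullins. Of the 7756 genes in the count table, 66 were taken, and the 65 whose group means all reached 40 counts were tested. The 66 were 26 Psm genes, 3 E1 genes, 10 E2 genes, Ubb, 20 Usp genes, Uchl1, 4 Otud genes and Cul7. Usp43 was below the limit, with 24.6 to 33.8 normalised counts in control and 21.3 to 60.8 in the hypoxic groups, and was not tested. Genes such as Uba1 and the immunoproteasome subunits Psmb8, Psmb9 and Psmb10 were not analysed here.

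The RNA came from male wild-type C57BL/6J mice that were 8 weeks old at the start. Exposure lasted 28 days. In the 5 IH libraries the mice had daily 8 h sessions of oxygen cycling between 10% and 21% every 2 min, in the 5 SH libraries daily 8 h sessions at a steady 10%, and in the 4 control libraries 21% throughout. The control mice belonged to a preliminary experiment, so exposure and experiment cannot be told apart in either comparison with control. IH vs. SH lies within the main experiment. Libraries were made from hippocampal RNA with poly(A) selection, and their total counts were between 7203659 and 11777101 on the deposited genes. The table held all 14 hippocampal principal neuron markers, and also all 11 of thalamus and striatum and all 14 of choroid plexus. It held 4 of 9 pan-neuronal and 2 of 9 astrocyte markers, so presence in it is no measure of the tissue taken. On GRCm39, the genes most described here lie at chr11:62441951-62445102 (Ubb, plus strand), chr7:4795621-4815589 (Ube2s, minus strand), chr4:126571423-126606667 (Psmb2, plus strand), chr5:86256244-86320662 (Uba6, minus strand) and chr7:63094413-63410224 (Otud7a, plus strand).

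Proteins are marked for destruction by a chain of ubiquitin. An E1 enzyme activates ubiquitin, an E2 carries it, and an E3 ligase, often built on a cullin, attaches it to the target. Deubiquitinases of the Usp, Uchl and Otud families remove or trim the chains, and the 26S proteasome unfolds and cuts the marked protein. The proteasome has a 20S core of alpha and beta subunits, of which some beta subunits cut, and a 19S cap of ATPase and non-ATPase subunits that binds and unfolds the substrate. In neurons this system turns over synaptic proteins and takes part in memory formation.

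The question was whether proteasome genes behaved like the rest of the system in IH and SH. A gene was called when its adjusted p was under 0.05 in edgeR's quasi-likelihood test over 7338 genes. In IH vs. control 14 of 65 members were called, 5 lower and 9 higher, against 10.9% of all genes tested (4.85% lower and 6.08% higher). In SH vs. control 22 of 65 were called, 9 lower and 13 higher, against 20.6% of all genes (10.5% lower and 10.2% higher). In IH vs. SH 1 member was called, higher in IH, against 2.37% of all genes (1.47% higher and 0.899% lower). Libraries of IH and control did not overlap for 15 members (15.1% of all genes), those of SH and control for 21 (19.4%), and those of IH and SH for 4 (4.46%).

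The calls were counted for the Psm genes and for the remaining members. Of the 26 Psm genes 1 (3.85%) was called in IH vs. control and 4 (15.4%) in SH vs. control, and of the 39 other members 13 (33.3%) and 18 (46.2%). With the length and GC trends of each library removed, 1 of 26 Psm genes was called in each comparison, against 5 and 4 of the 39 others and 5.23% and 5.9% of all genes, so that the Psm count was near the background in that fit. The median log2 fold change of the Psm genes was -0.12 in IH vs. control and -0.079 in SH vs. control, with 19 and 15 of 26 genes below 0. The 19 tested Usp genes had medians of 0.13 and 0.16, with 12 and 13 above 0. Over all genes tested the medians were -0.015 and 0.0035. Without the length and GC trends the Psm medians were -0.053 and -0.041 and the Usp medians 0.037 and 0.047. These are counts and medians of genes in the same libraries, and no test of the families against each other was made.

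The summed counts of the Psm and the Usp genes were compared between libraries. The Psm sums, in normalised counts scaled by TMM, were 30126, 31904, 33645 and 30617 in control, 29556, 29455, 32722, 29229 and 28885 in IH, and 31586, 30130, 31225, 30887 and 30952 in SH. Of the IH sums, 4 lay below every control sum and that of IH replicate 3 lay among them. The control mean was 31573 ± 1572 (SD, n = 4) and the IH mean 29969 ± 1560 (SD, n = 5), and SH averaged 30956 ± 538 (SD, n = 5), so the IH mean was lower than the control mean by about 1 SD. The Usp sums were 26348, 26987, 28022 and 26829 in control, 30046, 30087, 29426, 29024 and 30037 in IH, and 28264, 29680, 28983, 30196 and 30488 in SH. Every hypoxic library was above every control library for the Usp sum. In tissue RNA, fewer cells of a type and less RNA per cell cannot be told apart.

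**Figure D1:**
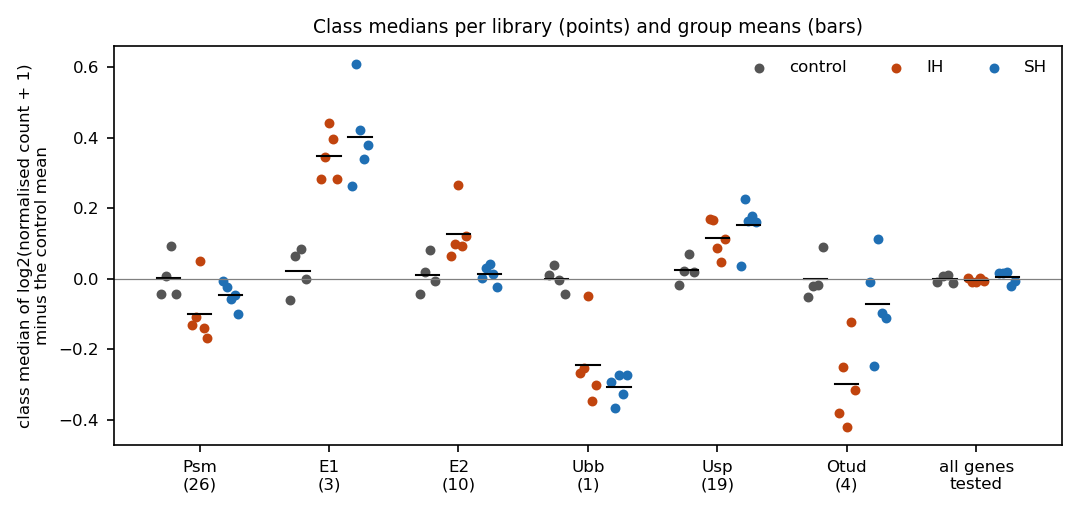
Each point is a library, and its height is the median over the genes of a class of log2(normalised count + 1) minus the control mean. Bars are group means over 4 control, 5 IH and 5 SH libraries, and numbers in parentheses are genes tested. The IH libraries are below 0 for the Psm class except replicate 3 (0.052), and the E1 class is above every control library in both hypoxic groups.

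A pair of libraries stood apart for these genes. Control replicate 3 was the highest of its group in 16 of 26 Psm genes and IH replicate 3 in 14 of 26, whereas they were highest in 29.9% and 25.3% of all genes tested. Without control replicate 3 the Psm median was -0.078 in IH vs. control and -0.037 in SH vs. control. Without IH replicate 3 it was -0.15 in IH vs. control, and without IH replicate 4 it was -0.066.

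The 20S beta subunits held 3 of the 4 proteasome genes called in SH vs. control, and all 3 fell. Psmb2 had 823.5, 814.2, 937.4 and 954.3 normalised counts in control, 767.0, 778.4, 782.4, 775.8 and 763.8 in IH, and 670.0, 734.5, 730.3, 658.4 and 701.6 in SH. All hypoxic libraries were below all control libraries, and all SH libraries were below all IH libraries. Psmb2 fell by 0.34 on the log2 scale in SH vs. control (SE 0.066, adjusted p = 0.00378), and this call held in all 23 alternative analyses. In IH vs. control its log2 fold change was -0.19 (adjusted p = 0.0732).

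Psmb3 had 972.8, 981.3, 1113 and 1060 normalised counts in control, 971.8, 945.2, 998.3, 949.4 and 882.1 in IH, and 870.1, 779.6, 806.8, 829.6 and 842.8 in SH. SH lay below both control and IH without overlap. Psmb3 fell by 0.32 in SH vs. control (SE 0.064, adjusted p = 0.00388), a call lost only with length and GC trends removed (-0.17, adjusted p = 0.0827). A stretch of 747 bases of Psmb3 is shared with Gm6467 and other genes, so its counts are uncertain. Its other log2 fold changes were -0.12 (adjusted p = 0.211) for IH against control and 0.20 (adjusted p = 0.102) for IH against SH. Psmb4 also fell in SH vs. control, from 2180 ± 93.1 (SD, n = 4) to 1817 ± 156 (SD, n = 5) normalised counts (-0.26, adjusted p = 0.0328), but the call was lost without any 1 of the 4 control libraries or of SH replicates 2, 3 and 4 and with the trends removed (-0.18), and its adjusted p ranged from 0.0126 to 0.114 over the alternatives. Psmb5, which carries the chymotrypsin-like activity of the core, was at -0.23 in SH vs. control (adjusted p = 0.0694), and its counts are uncertain too, since it shares up to 795 bases with 25 other genes.

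Psmb7, which carries the trypsin-like activity, was the beta gene with a positive log2 fold change in SH vs. control, which was not called. Its log2 fold changes were 0.19 for SH against control (adjusted p = 0.227) and -0.32 for IH against SH (adjusted p = 0.127). The latter was called with the replicate block, with the choroid plexus covariate and without IH replicate 3. Psmb7 was singled out after its values were seen. All 6 beta genes in the table had a negative log2 fold change in IH vs. control, between -0.20 and -0.069, and none was called as fitted. With length and GC trends removed, Psmb3 and Psmb5 were at 0.022 and 0.011 there and Psmb2 was called (adjusted p = 0.0205). The 5 alpha genes in the table, whose class forms the outer rings of the core, were not called as fitted in any comparison. The alpha and beta genes here are those left by the authors' selection on signal relative to control, and are not read as whole rings. Psma3 had a log2 fold change of 0.14 in IH and 0.19 in SH vs. control, both of which turned below 0 with the trends removed (-0.047 and -0.0069). Psma6 had one of 0.17 in SH (adjusted p = 0.0709), and Psma5 was at -0.22 in IH vs. SH (adjusted p = 0.222). In SH vs. control Psma6 was called in 3 of 23 alternatives, and Psma3 and Psma7 in 1 each, without SH replicate 1.

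In the 19S cap Psmd4, a ubiquitin receptor, was the Psm gene called in IH vs. control. It had 1804, 1877, 1941 and 1879 normalised counts in control, 1567, 1599, 1675, 1688 and 1522 in IH, and 1714, 1541, 1662, 1842 and 1708 in SH. IH lay below control without overlap, while SH overlapped it. Psmd4 fell by 0.22 in IH vs. control (SE 0.059, adjusted p = 0.0263), a call kept in 16 of 23 alternatives with adjusted p from 0.0140 to 0.245, and lost without control replicate 2, 3 or 4 or IH replicate 1, 2 or 5 and with the trends removed (-0.11). In SH its log2 fold change was -0.15 (adjusted p = 0.0854).

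Psmd10, which encodes gankyrin, an assembly chaperone of the cap, was the Psm gene that rose. It had 206.6, 199.0, 186.7 and 228.5 normalised counts in control and 256.0, 249.97, 230.9, 278.6 and 283.4 in SH, without overlap. Its log2 fold change was 0.34 in SH vs. control (SE 0.12, adjusted p = 0.0481), and the call was kept in 9 of 23 alternatives (adjusted p from 0.0325 to 0.257), being lost without control replicate 1, 2 or 3, IH replicate 2 or 3, or SH replicate 1, 2, 4 or 5. The ATPase gene Psmc6 was at 0.19 in IH and 0.13 in SH vs. control (adjusted p = 0.139 and 0.286). Both values turned below 0 with the length and GC trends removed (-0.0096 and -0.072). Psmd2, a scaffold subunit of the cap, was at -0.11 in IH vs. SH (adjusted p = 0.273).

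The regulators and the core assembly factors gave no call as fitted. The 11S activator genes Psme1 and Psme2 had log2 fold changes of -0.26 and -0.37 in IH vs. control (adjusted p = 0.104 and 0.248) and of -0.12 and -0.36 in SH vs. control (adjusted p = 0.438 and 0.229). Psme1 shares a stretch of 1204 bases with Emc9, and Psme2 and its copy Psme2b share one of 795 bases. The counts of these genes are uncertain. Psme4, which encodes the activator PA200, was at 0.14 in SH vs. control (adjusted p = 0.142) and at -0.020 with the length and GC trends removed. The core assembly genes Psmg1 and Psmg4 were at -0.40 in IH vs. SH (adjusted p = 0.251) and at -0.47 in SH vs. control (adjusted p = 0.0563).

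**Figure D2:**
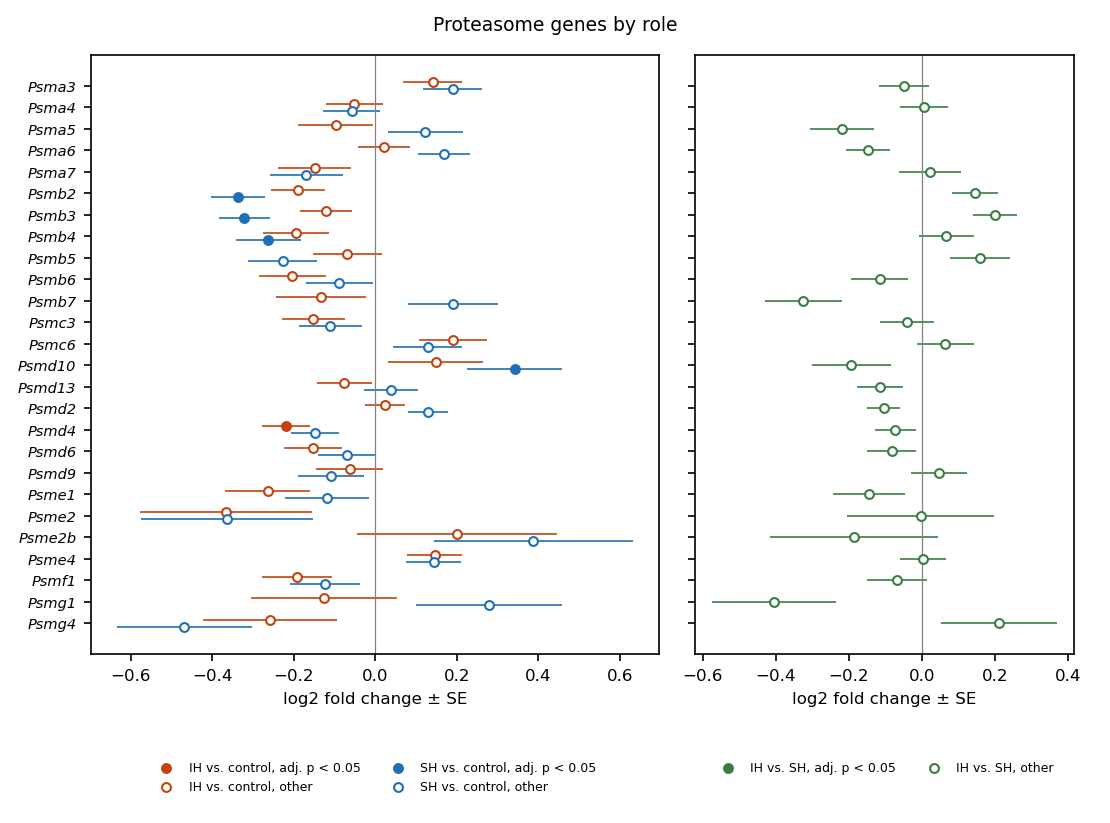
The left panel plots the log2 fold change of each Psm gene in IH vs. control and SH vs. control and the right panel in IH vs. SH, with bars of 1 SE. Filled points have an adjusted p under 0.05. Psmd4 is filled in IH vs. control, Psmb2, Psmb3, Psmb4 and Psmd10 are filled in SH vs. control, and no point is filled in IH vs. SH.

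Ubb fell in both hypoxic groups. Ubb, which encodes a chain of linked ubiquitin units and is the most abundant member per kb of transcript (9427 normalised counts per kb in control), had 24342, 24821, 24098 and 23463 normalised counts in control, 20075, 20287, 23371, 19019 and 19630 in IH, and 19729, 18746, 19992, 19292 and 20011 in SH. All 10 hypoxic libraries were below the 4 control libraries, with IH replicate 3 closest to them. Ubb fell by 0.24 in IH vs. control (SE 0.062, adjusted p = 0.0222) and by 0.31 in SH vs. control (SE 0.062, adjusted p = 0.00421). The SH call held in all 23 alternatives. The IH call held in 18 of 23, and the adjusted p was 0.0602 without control replicate 1, 0.0737 without control replicate 2, 0.0502 without IH replicate 2, 0.0565 without IH replicate 4 and 0.0510 without IH replicate 5. IH and SH were not called different (0.066, adjusted p = 0.659). A stretch of 840 bases of Ubb is shared with other genes or pseudogenes.

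**Figure D3:**
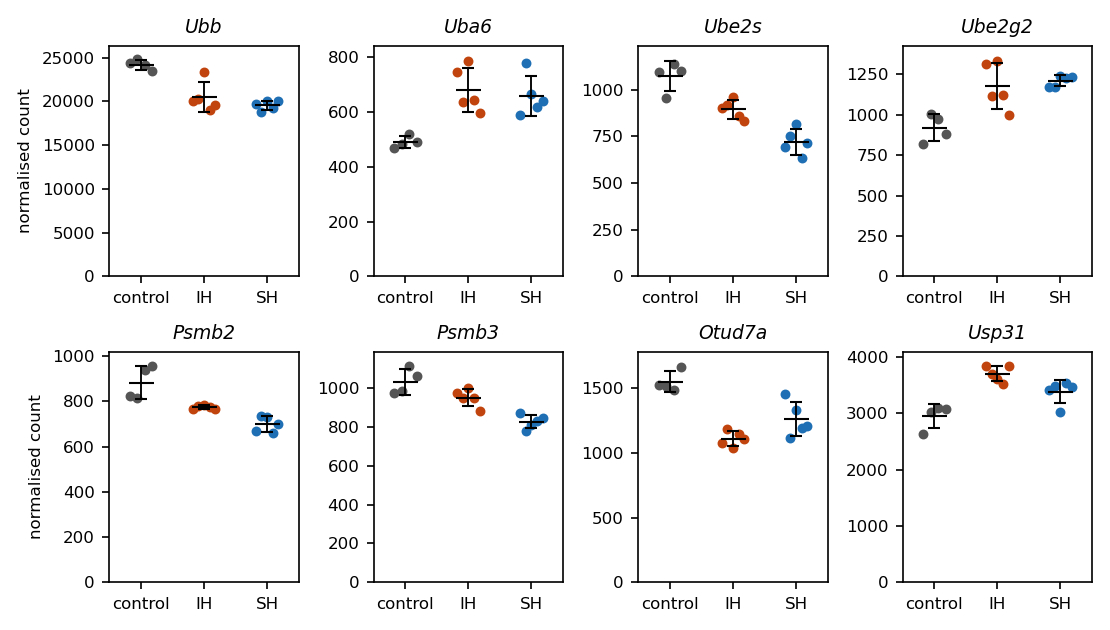
Normalised counts of 8 members per library (points), with the group mean and SD (bars) over 4 control, 5 IH and 5 SH libraries, and each axis starting at 0. Ubb and Psmb2 are below control in every hypoxic library, Uba6 is above it in every hypoxic library, and Ube2s steps down from control to IH to SH.

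Ubb, Ube2s and Otud7a fell in IH and SH vs. control, and Otud7a, which is not among the members with a motif match, is not shown. Psmb5 was chosen after the matches were seen, because it held a match of each motif searched. The promoters of 3 members, Ubb, Ube2s and Psmb5, are shown. Each runs from 250 bases before to 50 bases after a RefSeq start (GRCm38.p6), 5′ to 3′, on the plus strand at chr11:62551481-62551780 for the second of 2 listed starts of Ubb, and on the minus strand at chr7:4812291-4812590 for Ube2s and chr14:54617946-54618245 for Psmb5. Capitals mark the letters TGACNNNGC of the antioxidant response element, ACGTG of the hypoxia response element core and GAANNTTC of the heat shock element, on either strand, and in Ubb the first overlaps one match of the second.
Ubb: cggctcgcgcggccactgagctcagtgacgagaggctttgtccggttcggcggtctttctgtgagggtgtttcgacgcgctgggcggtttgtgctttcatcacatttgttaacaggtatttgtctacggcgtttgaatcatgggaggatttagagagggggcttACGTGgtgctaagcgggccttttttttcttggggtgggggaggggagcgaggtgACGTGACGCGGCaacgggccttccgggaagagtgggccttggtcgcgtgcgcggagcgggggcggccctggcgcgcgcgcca
Ube2s: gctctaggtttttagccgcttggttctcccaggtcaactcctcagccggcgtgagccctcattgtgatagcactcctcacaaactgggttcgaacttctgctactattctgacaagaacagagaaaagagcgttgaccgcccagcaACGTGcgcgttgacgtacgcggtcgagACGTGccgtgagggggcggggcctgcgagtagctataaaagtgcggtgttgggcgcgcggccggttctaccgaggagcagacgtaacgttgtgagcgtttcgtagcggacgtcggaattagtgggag
Psmb5: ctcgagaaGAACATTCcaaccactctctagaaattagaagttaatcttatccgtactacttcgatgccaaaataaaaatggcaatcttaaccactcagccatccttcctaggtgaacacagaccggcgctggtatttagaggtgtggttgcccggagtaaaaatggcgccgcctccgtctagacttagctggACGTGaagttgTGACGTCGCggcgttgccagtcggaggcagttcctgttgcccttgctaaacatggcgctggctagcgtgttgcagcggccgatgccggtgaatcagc
The first listed Ubb start held none of these letters in its window. Of the 56 members with a promoter in the table, 13 (23.2%) held TGACNNNGC, 18 (32.1%) ACGTG and 3 (5.36%) GAANNTTC, against 14.0%, 21.8% and 9.04% of 27025 genes. The shares in the 23 Psm promoters were 21.7%, 21.7% and 8.70%, and of the 17 Usp promoters 4 (23.5%), 7 (41.2%) and 0 held these letters. A match is a description of letters and not a binding site.

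All 3 E1 genes rose in SH vs. control, and Uba3 and Uba6 rose in IH vs. control, where 10.2% and 6.08% of all genes tested were higher. With length and GC trends removed, 1 of 3 was called in SH and 0 in IH, against 5.9% and 5.23% of all genes. Uba6, which activates ubiquitin and the ubiquitin-like FAT10, had 470.5, 482.0, 519.8 and 489.7 normalised counts in control, 746.1, 637.1, 787.2, 645.6 and 596.0 in IH, and 587.9, 777.6, 665.9, 618.5 and 639.6 in SH. All hypoxic libraries were above all control libraries. Uba6 rose by 0.48 in IH vs. control (SE 0.098, adjusted p = 0.00789) and by 0.42 in SH vs. control (SE 0.098, adjusted p = 0.00810), and both calls held in every alternative except the removal of length and GC trends (0.25, adjusted p = 0.121, and 0.18, adjusted p = 0.245).

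Uba3, the catalytic subunit of the NEDD8 activating enzyme, rose by 0.26 in IH (adjusted p = 0.0373) and 0.23 in SH (adjusted p = 0.0397) vs. control, from 1223 ± 96.2 (SD, n = 4) to 1465 ± 117 (SD, n = 5) and 1436 ± 86.3 (SD, n = 5) normalised counts. Both calls were lost without control replicate 1, 2 or 4, and with IH replicate 1, 2 or 3 or SH replicate 2, 3 or 4 left out of its own comparison; they were kept in 15 of 23 alternatives each. With length and GC trends removed the log2 fold changes were 0.10 (adjusted p = 0.445) and 0.054 (adjusted p = 0.698). Uba7, which activates the interferon-induced modifier ISG15, is a low-count gene. It had 80.1, 82.1, 65.9 and 80.5 normalised counts in control, 74.2, 97.9, 102.6, 112.2 and 94.5 in IH and 117.9, 117.8, 103.3, 107.5 and 100.2 in SH, and rose in SH vs. control (0.51, SE 0.15, adjusted p = 0.0271). The SH call was lost without control replicate 1, 3 or 4 or SH replicate 2 (adjusted p from 0.0510 to 0.0726). In IH its log2 fold change was 0.32 (adjusted p = 0.164).

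The E2 genes went both ways. Ube2s, which extends chains for the anaphase-promoting complex, had 1097, 958.1, 1140 and 1099 normalised counts in control, 902.8, 917.4, 961.3, 857.3 and 834.4 in IH, and 691.9, 749.9, 816.5, 633.5 and 714.3 in SH. The SH libraries were below all others, and IH lay between with 1 library above the lowest control. Ube2s fell by 0.57 in SH vs. control (SE 0.079, adjusted p = 4.86e-04), a call kept in all 23 alternatives, and by 0.26 in IH vs. control (SE 0.079, adjusted p = 0.0442), kept in 11 of 23 with adjusted p from 0.0260 to 0.512. The IH call was lost without control replicate 1, 3 or 4, IH replicate 1, 2, 4 or 5, or SH replicate 5, and with length and GC trends removed (-0.10). A stretch of 970 bases of Ube2s is shared with its retrotransposed copy Ube2srt, so its counts are uncertain.

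Ube2g2 acts in endoplasmic reticulum degradation. It had 821.7, 1005, 970.7 and 883.6 normalised counts in control, 1313, 1119, 1335, 1125 and 997.9 in IH, and 1173, 1172, 1241, 1227 and 1233 in SH. SH lay above control without overlap, and IH overlapped it at 1 library. Ube2g2 rose by 0.36 in IH (SE 0.087, adjusted p = 0.0179) and by 0.39 in SH (SE 0.087, adjusted p = 0.00669) vs. control. The SH call held in all 23 alternatives, and the IH call was lost without control replicate 1 (adjusted p = 0.0651) or 4 (0.0513).

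Of the other E2 genes, Ube2d3, which works with many E3 ligases, rose by 0.20 and 0.21 in IH and SH vs. control (adjusted p = 0.0302 and 0.0194). Both of these calls were lost without control replicate 1 (adjusted p = 0.0991 and 0.0673), and with length and GC trends removed (0.21 and 0.20, adjusted p = 0.0552 and 0.0564), and the IH call also without control replicate 2 or 4. Ube2w, which adds ubiquitin to protein N-termini, rose in IH vs. control (0.33, adjusted p = 0.0377), and the call was lost without control replicate 1, 2 or 4 or IH replicate 1 or 3 and with length and GC trends removed (0.29). Ube2g1 rose in SH vs. control (0.34, adjusted p = 0.0199), lost without control replicate 1 or 2 and with the trends removed (at 0.16, adjusted p = 0.297), and Ube2r2, a partner of cullin ligases, fell there (-0.22, adjusted p = 0.0381), lost without control replicate 1 or 2, IH replicate 4 or SH replicate 1, 3, 4 or 5 and with the trends removed (-0.22).

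The Usp genes that were called were higher, with 1 exception. In IH vs. control 4 of 19 were called, all higher (Usp31, Usp32, Usp37 and Usp45), where 6.08% of all genes tested were higher. In SH vs. control 6 of 19 were called, and 5 of them were higher (Usp7, Usp31, Usp32, Usp45 and Usp53), where 10.2% of all genes were higher. Usp31 had 2644, 3018, 3101 and 3073 normalised counts in control, 3844, 3697, 3617, 3531 and 3844 in IH, and 3423, 3489, 3023, 3538 and 3466 in SH. IH lay above control without overlap, and SH replicate 3 lay within the control range. It rose by 0.33 in IH vs. control (SE 0.061, adjusted p = 0.00482), in all 23 alternatives, and by 0.20 in SH vs. control (adjusted p = 0.0347), in 12 of 23 and at 0.11 (adjusted p = 0.284) with length and GC trends removed.

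Usp45, a deubiquitinase of DNA repair, had 1279, 1547, 1608 and 1313 normalised counts in control, 1781, 1918, 1842, 1636 and 1532 in IH, and 1724, 1872, 1757, 1953 and 1962 in SH. SH was above control without overlap. It rose by 0.37 in SH (SE 0.085, adjusted p = 0.00810), lost only among the 23 alternatives when length and GC trends were removed (0.15, adjusted p = 0.249), and by 0.28 in IH (adjusted p = 0.0469), in 8 of 23 (0.077 in that fit). Usp32 rose by 0.17 and 0.19 in IH and SH (adjusted p = 0.0471 and 0.0217), in 7 and 20 of 23 alternatives, and was at 0.036 (adjusted p = 0.712) and 0.029 (adjusted p = 0.768) without those trends. Usp37, which counters degradation of cell cycle proteins, rose by 0.31 in IH (adjusted p = 0.0270), lost without control replicate 1, 2 or 3 or IH replicate 1 or 2 and with the trends removed (0.16, adjusted p = 0.262). A stretch of 1265 bases of Usp37 is shared with Vil1, so its counts are uncertain. Usp53 and Usp7, the latter a deubiquitinase of the p53 and Mdm2 pathway, rose by 0.33 and 0.18 in SH (adjusted p = 0.0288 and 0.0403), in 18 and 10 of 23, and without the trends they were at 0.13 and 0.047 (adjusted p = 0.409 and 0.668).

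The exception was Usp21, which acts on histone H2A among other substrates. It had 1121, 1083, 952.1 and 1148 normalised counts in control, 1069, 1021, 1026, 1008 and 998.8 in IH, and 912.9, 805.2, 928.3, 763.4 and 841.9 in SH. SH lay below control and IH without overlap. Usp21 fell by 0.34 in SH vs. control (SE 0.073, adjusted p = 0.00596), lost only with length and GC trends removed (-0.18, adjusted p = 0.0930), was at -0.071 in IH vs. control (adjusted p = 0.529; 0.039 with the trends removed), and at 0.27 in IH vs. SH (adjusted p = 0.0562, with 0.0200 to 0.132 over the alternatives).

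Of the Otud genes, Otud1 and Otud7a fell in IH vs. control, and Otud7a also in SH vs. control. Otud7a, which encodes a neuronal deubiquitinase also called Cezanne 2, had 1521, 1514, 1480 and 1663 normalised counts in control, 1076, 1180, 1039, 1143 and 1104 in IH, and 1452, 1115, 1328, 1191 and 1204 in SH. All hypoxic libraries were below all control libraries. It fell by 0.48 in IH vs. control (SE 0.076, adjusted p = 0.00166), in all 23 alternatives, and by 0.30 in SH vs. control (SE 0.076, adjusted p = 0.0143), lost only with length and GC trends removed (-0.15, adjusted p = 0.163). IH vs. SH was -0.18 (adjusted p = 0.222).

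Otud1 had 290.3, 320.7, 344.7 and 327.5 normalised counts in control, 216.3, 255.8, 236.2, 229.7 and 218.8 in IH, and 315.4, 255.1, 349.9, 291.1 and 266.1 in SH. IH was below control without overlap, and SH overlapped both. Otud1 fell by 0.47 in IH vs. control (SE 0.10, adjusted p = 0.0113), in all 23 alternatives, and was at -0.12 in SH vs. control (adjusted p = 0.437). The direct IH vs. SH difference was -0.35 (adjusted p = 0.0817), so the IH and SH responses of Otud1 were not shown to differ. Otud4 rose in SH vs. control (0.20, adjusted p = 0.0462), in 8 of 23 alternatives, and was at 0.066 (adjusted p = 0.550) with length and GC trends removed.

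Uchl1, a highly abundant neuronal deubiquitinase (5565 normalised counts per kb in control), had 11157, 10541, 9606 and 9141 normalised counts in control, 9893, 8962, 11171, 9137 and 7599 in IH, and 8988, 8017, 9050, 7640 and 7311 in SH. SH lay below control without overlap, the highest SH library being just under the lowest control one. It fell by 0.30 in SH vs. control (SE 0.10, adjusted p = 0.0449), in 10 of 23 alternatives with adjusted p from 0.0201 to 0.159. Of the 4 pan-neuronal markers tested (9 in the list), only Syn1 was called, lower in SH vs. control (-0.31, adjusted p = 0.0249, and -0.15, adjusted p = 0.286 with length and GC trends removed). The 4 had a median of -0.11 in SH vs. control, and the 14 principal neuron markers one of 0.0045 with none called lower. Summed, the 4 had 38746.6 to 45752.5 normalised counts in control, 35966.5 to 40158.7 in IH and 35734.5 to 37012.6 in SH. For this sum SH lay below control without overlap, while for the sum of the 14 principal neuron markers the groups overlapped. Their part in the Uchl1 result was not tested. The cullin gene Cul7 was at -0.040 and 0.063 in IH and SH vs. control (adjusted p = 0.855 and 0.759), and the sign of both values turned when single libraries were left out.

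**Figure D4:**
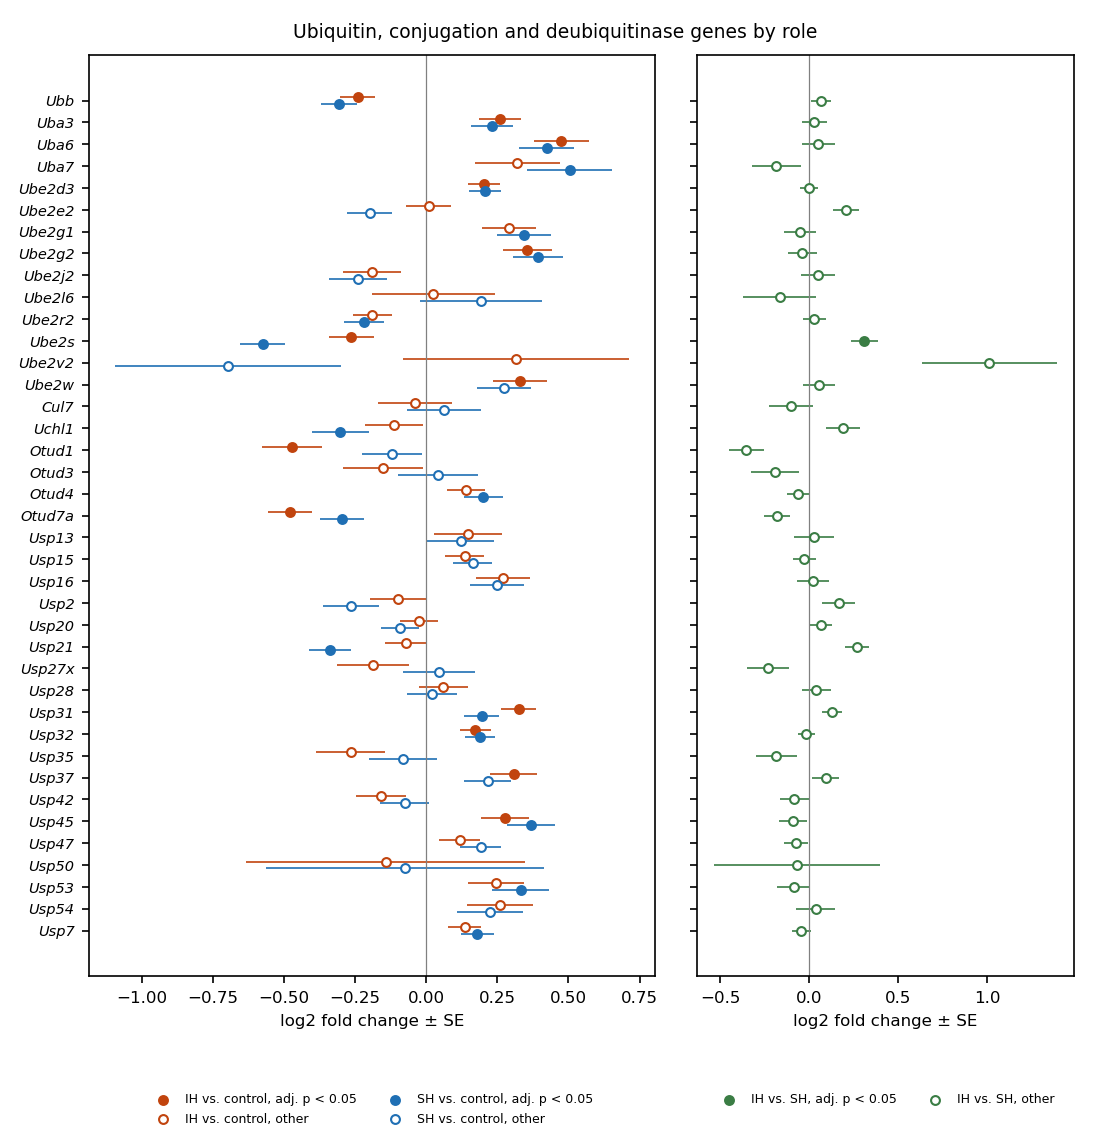
Log2 fold changes of the 39 members outside the proteasome, by role, in IH vs. control and SH vs. control (left) and IH vs. SH (right), with bars of 1 SE. Filled points have an adjusted p under 0.05. In IH vs. SH the Ube2s point alone is filled, and the wide bars of Ube2v2 and Usp50 reflect large spread between libraries.

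Both comparisons with control called 10 members, each in the same direction, which is 71.4% of the IH list and 45.5% of the SH list. They were Ubb, Ube2s and Otud7a, which fell, and Uba3, Uba6, Ube2d3, Ube2g2, Usp31, Usp32 and Usp45, which rose. Both comparisons share the 4 control libraries, so the overlap is not independent evidence. The share of all genes tested that was called in both was not computed, so the overlap is not read as particular to these members. The direct test of IH against SH called Ube2s alone, which was higher in IH (0.31, SE 0.075, adjusted p = 0.0397), all 5 IH libraries lying above all 5 SH libraries. That call was kept in 10 of 23 alternatives (adjusted p from 0.00928 to 0.116) and was lost without control replicate 1, 3 or 4, IH replicate 1, 2, 3 or 4, or SH replicate 1, 2, 4 or 5. The Psm and Usp medians of IH vs. SH were -0.059 and -0.015, against -0.0039 for all genes. No Psm gene was called there by edgeR as fitted or by DESeq2, while Psmb7 was called in 3 of 23 alternatives. In edgeR as fitted 7 of 26 Psm genes had an unadjusted p under 0.05, against 15.8% of all genes.

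The log2 fold changes against control moved with base composition. The slope of a library's log2 counts on GC content was 0.023 to 0.22 per 10 GC points in control, -0.054 to 0.0065 in IH and -0.17 to 0.049 in SH. Across the 65 members the correlation of log2 fold change with the GC content of the transcript was -0.64 in IH vs. control and -0.39 in SH vs. control, against -0.42 and -0.51 for all genes, and across the 19 Usp genes it was -0.77 and -0.85. With length and GC trends removed, the Usp correlations were -0.40 and -0.47 and the Psm ones -0.067 and -0.099, against 0.0050 and -0.0032 for all genes. These are correlations across genes of the same libraries, given as descriptions. Of the 15 members under 45% GC, 5 were called in IH and 8 in SH vs. control, all higher, against 15.0% and 25.9% of all genes in that range called in either direction. Of the 11 members at 55% or more, 4 were called in IH vs. control, 3 of them lower, and 4 in SH vs. control, 3 of them lower, against 11.6% and 25.5% of all genes in that range.

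With the length and GC trends of each library removed, the counts fell to 6 members in IH vs. control and 5 in SH vs. control, where 5.23% and 5.9% of all genes were called. Otud1, Otud7a, Ubb, Ube2g2 and Usp31 remained in IH, and Psmb2 was gained (-0.26, adjusted p = 0.0205). Psmb2, Uba7, Ubb, Ube2g2 and Ube2s remained in SH. In IH vs. SH, where 2.43% of all genes were called, Ube2s was lost (0.25, adjusted p = 0.116). Ubb and Ube2g2 were called in both control comparisons in both fits.

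**Figure D5:**
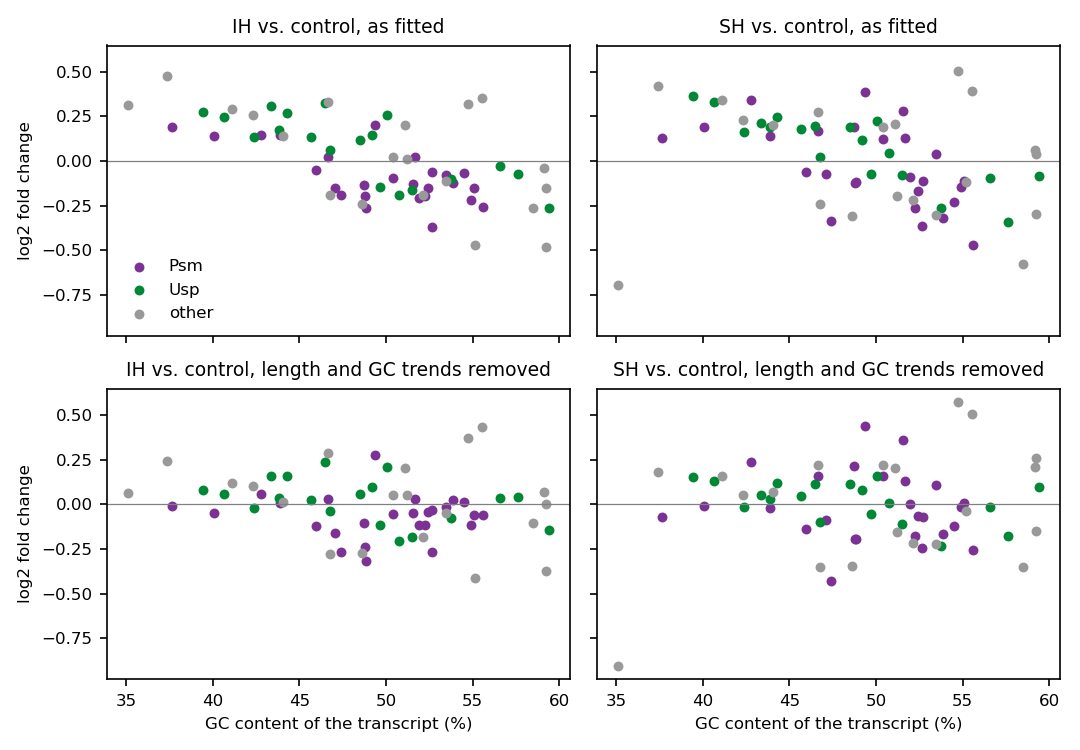
Log2 fold change of each member against the GC content of its transcript in percent, for IH vs. control (left) and SH vs. control (right), as fitted (top) and after the length and GC trends of each library were removed (bottom). The downward slope of the Usp and Psm points in the top panels is flatter in the bottom panels, where the Usp medians are 0.037 and 0.047.

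Other genes of the pathway were taken from lists of known components. Of 22 E3 ligases and adaptors tested, 2 fell and 2 rose in IH vs. control, and 1 fell and 7 rose in SH vs. control, where 4.85% and 6.08% of all genes fell and rose in IH and 10.5% and 10.2% in SH. With length and GC trends removed, 2 were called in IH, Rnf7 (0.24, adjusted p = 0.0420) and Herc1 (-0.33, adjusted p = 0.00124), neither of which was called as fitted. In SH 4 were called in that fit, of which Fbxo2, Kctd2 and Herc1 were not called as fitted. Rnf7, the RING subunit that pairs with cullin 5, rose in SH (0.40, adjusted p = 0.00281), as did the ariadne ligase Arih1 (0.29, adjusted p = 0.00352) and the cullin 4 adaptor Dcaf1 (0.39, adjusted p = 0.00470). Rnf7 kept this call in all 23 alternatives, and Arih1 and Dcaf1 lost theirs only with the trends removed (0.12, adjusted p = 0.162, and 0.26, adjusted p = 0.0593). Kctd2, a cullin 3 adaptor, had 1444 ± 55.2 (SD, n = 4) normalised counts in control. The IH mean was 1152 ± 94.3 (SD, n = 5) and the SH mean 1480 ± 85.0 (SD, n = 5). It fell in IH vs. control (-0.33, adjusted p = 0.00857) and was lower in IH than in SH (-0.36, adjusted p = 0.0103). The first call was lost only with the trends removed (-0.19, adjusted p = 0.0756), and the second held in all 23 alternatives. In SH vs. control Kctd2 was not called as fitted (0.035, adjusted p = 0.743) and was called higher with the trends removed (0.24, adjusted p = 0.0271).

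Of 8 tested p97 cofactors, shuttle factors and proteasome accessory genes, 1 fell in IH vs. control, 2 fell and 1 rose in SH vs. control, and 2 were lower in IH than in SH. Of all genes, 4.85% fell in IH, 10.5% fell and 10.2% rose in SH, and 0.899% were lower in IH than in SH. With length and GC trends removed, 2, 1 and 1 were called, against 5.23%, 5.9% and 2.43% of all genes. Zfand5, which stimulates the proteasome, had 3550 ± 162 (SD, n = 4) normalised counts in control. The IH mean was 3136 ± 123 (SD, n = 5) and the SH mean 3725 ± 99.7 (SD, n = 5). It was lower in IH than in control (-0.18, adjusted p = 0.0275) and than in SH (-0.25, adjusted p = 0.0120). With length and GC trends removed these values were -0.34 (adjusted p = 0.0053) and -0.24 (adjusted p = 0.032). The IH vs. SH call held in all 23 alternatives, and the call against control was lost in 7, among them without control replicate 1, 2 or 3 or IH replicate 1 or 4, with adjusted p up to 0.0856. Akirin2, which carries proteasomes into the nucleus, was lower in IH than in SH (-0.31, adjusted p = 0.0431), a call that 15 of 23 alternatives lost. Ddi2, the protease that activates the proteasome transcription factor Nrf1, rose in SH vs. control (0.33, adjusted p = 0.00676), and the p97 cofactor Ubxn1 fell there (-0.40, adjusted p = 0.00881). The proteasome ubiquitin receptor gene Adrm1 also fell in SH vs. control (-0.23, adjusted p = 0.0402), a call lost in 11 of 23 alternatives, and it stood at 0.030 (adjusted p = 0.802) once the trends were removed. Adrm1 lost it without any 1 of the 4 control libraries, IH replicate 4 or SH replicate 2, 3, 4 or 5. The Ddi2 call held in all 23 alternatives and the Ubxn1 call was lost only with length and GC trends removed (-0.24, adjusted p = 0.160). None of 6 tested COP9 signalosome and cullin regulator genes was called by edgeR as fitted, and with the trends removed Cops5 was called lower in IH vs. control (-0.22, adjusted p = 0.0333).

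Of 20 tested ubiquitin-like modifiers and their enzymes, 1 fell and 2 rose in IH vs. control, and 2 fell and 3 rose in SH vs. control, near or above the shares of all genes given for the E3 list. With length and GC trends removed, Pias2 was called in SH, and in IH the ribosomal and ubiquitin fusion gene Rps27a (-0.46, adjusted p = 0.0235), which was not called as fitted (adjusted p = 0.0580). Map1lc3a, an autophagosome marker, fell in both (-0.49, adjusted p = 0.00101, and -0.47, adjusted p = 8.59e-04), but was at -0.17 (adjusted p = 0.0683) and -0.035 (adjusted p = 0.736) with length and GC trends removed. The SUMO ligase gene Pias2 rose in both (0.25, adjusted p = 0.0375, and 0.41, adjusted p = 0.00205). Its SH call held in all 23 alternatives, and its IH call was lost in 10, among them without control replicate 1, 2 or 4 or IH replicate 1, 4 or 5, with adjusted p up to 0.217. Of 8 other deubiquitinases, none was called in IH vs. control, where 10.9% of all genes were, but Tnfaip3 (-0.52, adjusted p = 0.0462) and Otulin (-0.44, adjusted p = 0.0454) were called there with the trends removed. Otub1 fell (-0.18, adjusted p = 0.0338) and Vcpip1 rose (0.25, adjusted p = 0.0252) in SH vs. control, where 20.6% of all genes were called. Neither was called with the trends removed, and their calls were lost in 9 and 5 of 23 alternatives. The libraries whose removal lost them were control replicates 1, 2 and 4, IH replicate 4 and SH replicates 2 and 4 for Otub1, and control replicates 1 and 4 and SH replicates 2 and 3 for Vcpip1.

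The cell type makeup varied between libraries. The summed level of 9 of 13 microglia markers was 6062 to 6622 normalised counts in control, 5489 to 6784 in IH and 4632 to 5491 in SH, and 4 of the 9 fell in SH vs. control, 1 of them also with length and GC trends removed. In IH vs. SH the microglia markers had a median of 0.25, and 1 was called, C1qc, higher in IH (0.50, adjusted p = 0.0323). With the trends removed C1qc stayed called there (0.46, adjusted p = 0.0247). All 4 tested erythrocyte genes fell in IH vs. control, and 2 were called with the trends removed. The 9 oligodendrocyte markers of 10 listed summed to between 75322 and 110156 in control, 85671 and 192094 in IH and 84801 and 145238 in SH. Their median log2 fold changes were 0.32 and 0.38 against control, none was called, and with the trends removed Olig2 was called in both. Of the 10 endothelial and mural markers, Ly6c1 rose in IH vs. control (0.46, adjusted p = 0.0270) and Slco1a4 (0.40, adjusted p = 0.00119) and Flt1 (0.22, adjusted p = 0.0245) in SH vs. control, where neither was called with the trends removed. Slco1a4 was also lower in IH than in SH (-0.40, adjusted p = 0.00444). The granule cell gene Prox1 rose in both hypoxic groups (0.66, adjusted p = 0.0169, and 0.81, adjusted p = 0.00387) and was the only one called of the 14 principal neuron markers, whose medians were 0.080 and 0.0045. The IH call of Prox1 was lost with the trends removed (0.56, adjusted p = 0.0522). The 14 choroid plexus markers summed to between 4843 and 127008 in control, 5764 and 77055 in IH and 6224 and 94503 in SH. With the choroid plexus level as a covariate 13, 18 and 2 members were called in IH vs. control, SH vs. control and IH vs. SH, where 10.2%, 19.7% and 2.40% of all genes were called in the same fit. The part of the microglia, erythrocyte, oligodendrocyte, endothelial and Prox1 differences in the results above was not tested.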

How the data were processed

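Poly(A) RNA of mouse hippocampus was sequenced in 4 control, 5 IH and 5 SH libraries, grouped by their labels. The authors deposited estimated counts for each gene, made from reads (fastp 0.23.4, HISAT2 2.2.1, StringTie 2.2.1, GRCm39, per the submitters' processing notes), without normalization. Per the methods, the 7756 genes were protein-coding and selected on a processed signal relative to control, so every share and adjusted p-value refers to this selection alone. Fractional entries of 10 genes were rounded to whole counts.

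Counts were tested with edgeR 4.0.16 (R 4.3.3, quasi-likelihood, TMM, all 14 libraries in one fit) over 7338 genes with a mean of at least 40 in every group, with Benjamini-Hochberg adjustment. Each SE was taken back from the F statistic of the test. Normalised counts are counts divided by the TMM-scaled library size relative to its mean. The fit was tested on simulated data. The members, lists and tests were chosen with earlier results of these data known. An item that the symbols also match is not reported here. Named genes are called members (at most 30 per comparison), the member with the smallest p of each class and comparison, fixed Ubb, Uba6 and 11S genes, and the 3 leading called genes of each pathway list. The 23 alternatives per comparison were DESeq2 1.42.0, scaling by library total or the 80th percentile, no filter, filterByExpr, only the 2 groups compared, a replicate block, loess trends on length and GC content as offsets in edgeR, a choroid plexus covariate and each of 14 libraries left out. Length and GC content came from GENCODE transcripts of GRCm39 for 7708 genes, and promoters from RefSeq. Shared sequence was at least 150 bases at 97% identity by BLAST 2.17.0, and counts of such genes are uncertain. The labels do not say that each library is a separate mouse, so p-values measure the spread between these libraries.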

Additional observations from a re-analysis of the deposited data

Results flagged for a closer look

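In 9 of 111 gene and group combinations (8.11%) of the 37 named members, 1 library lay far from the others of its group (Dixon's test, which flags about 1 in 20 by chance). IH replicate 3 was the high one in 4 of them. It had 1784 normalised counts of Psmc6 (others 1488 to 1566), 270.7 of Psme2 (143.9 to 164.0), 6072 of Ube2d3 (5492 to 5616) and 1787 of Ube2w (1347 to 1449). Its slope of log2 counts on transcript length was -0.085 per doubling, the lowest of the 14 libraries. Control replicate 3 was high for Usp7 (3776, others 3494 to 3530) and low for Uba7 (65.9, others 80.1 to 82.1). Control replicate 1 was high for Cul7 (802.6, others 550.0 to 586.5). SH replicate 4 was high for Psmg4 (78.7, others 70.7 to 72.5), and SH replicate 3 was low for Usp31 (3023, others 3423 to 3538).

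The effects of IH and SH differed for Ube2s, by 0.31 on the log2 scale (adjusted p = 0.0397, edgeR), in the direct IH vs. SH test. That call was lost in 13 of 23 alternatives (adjusted p up to 0.116), and the gene shares 970 bases with Ube2srt.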

How the results depend on the processing

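Removing length and GC trends left 384 genes and 6 members in IH vs. control and 433 genes and 5 members in SH vs. control, and 0 members in IH vs. SH, with Psm and Usp medians of -0.053 and 0.037 in IH and a Usp median of 0.047 in SH. In that fit the sign turned for 9 of 65 members in IH, 8 in SH and 2 in IH vs. SH, among them Cul7 (0.068), Psma3 (-0.047), Psmb3 (0.022), Psmb5 (0.011), Psmc6 (-0.0096) and Usp21 (0.039) in IH and Psma3 (-0.0069), Psmc6 (-0.072) and Psme4 (-0.020) in SH, and also for Adrm1 (0.030) and Fau (0.010) there. The cause was not tested. Cul7 also turned without control replicate 1 (0.10) or IH replicate 3 (0.032) in IH. In SH its value ran from -0.0086, without SH replicate 1, to 0.205 over the single-library removals. In IH vs. SH 294 genes and 2 members were called by DESeq2, 64 genes and 0 members with only the 2 groups in the fit, and 2 members with 80th percentile scaling or the choroid plexus covariate.

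With 1 library left out, 389 to 976 genes and 5 to 15 members were called in IH vs. control, 908 to 1742 and 9 to 27 in SH vs. control and 88 to 179 and 0 to 1 in IH vs. SH. Psm medians were -0.15 to -0.066, -0.10 to -0.037 and -0.091 to -0.038, and Usp medians 0.10 to 0.16, 0.13 to 0.19 and -0.031 to 0.037. The members called in IH vs. control were 5, 6 and 6 without control replicate 1, 2 and 4, and 7 and 8 without IH replicate 1 and 2. In SH vs. control they were 9, 13 and 14 without control replicate 1, 2 and 4, and 14 and 13 without SH replicate 2 and 4. In IH vs. SH they were 0 without control replicate 1 or 4, IH replicate 1, 2 or 4, or SH replicate 2, 4 or 5.

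With the replicate number as a block, 13, 18 and 2 members and 738, 1443 and 148 genes were called in the 3 comparisons. Numbers did not pair the libraries, since the correlation of deviations was -0.30 to 0.46 over 13 same-numbered pairs, above 0.1 in 6, and 7 of 26 library and group pairs correlated best at the same number. Usp43 was the member with too few counts to be tested.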

Other observations

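The variant E2 gene Ube2v2, singled out after its values were seen, varied more between libraries of a group than between groups. It had 837.2, 865.4, 1013 and 331.9 normalised counts in control, 1069, 1142, 404.3, 971.6 and 1161 in IH, and 923.4, 175.2, 404.6, 386.1 and 457.4 in SH. The deubiquitinase gene Usp50, chosen in the same way, had 96.5, 109.1, 57.3 and 4.35 normalised counts in control, against 33.9 to 82.3 in the hypoxic libraries. Neither gene was called in any comparison.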
